A study of Drosophila melanogaster with 2 samples.

Results

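Chromosome 4 of Drosophila melanogaster held 260 of the 30000 candidate peaks (0.867%) in the pooled list of a ChIP-seq experiment on the homeobox protein CG11617. The members were every entry of the authors' pooled dm6 list of peaks with background that lay on this chromosome, whatever its signal, so most of them are weak candidates. Such a list is the input to the authors' IDR filter (irreproducible discovery rate), which keeps peaks whose ranks repeat between replicates. Overlapping entries joined into 181 separate regions that covered 114 kb, or 8.46% of the chromosome against 9.38% of the other 5 arms.

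Chromatin from whole adult flies, males and females pooled and of unknown age, was sonicated and precipitated with an antibody against GFP. All samples came from 1 transgenic strain, CG11617-GFP, in which the tag is fused to the C terminus of CG11617. There was 1 group of 2 biological replicates, numbered 2 and 3, so no contrast between conditions was possible and n = 2 throughout. The replicates were not said to come from separate crosses or days, and no untagged or input sample was analysed here. A whole-fly sample mixes all tissues, so a weak entry on few cells and a weak entry on many cells cannot be told apart. Which promoter drives the transgene is not stated in the labels.

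The fourth is the smallest chromosome of the fly, also called the dot chromosome or Muller element F. Most of it is packaged in chromatin that carries HP1a and methylated histone H3 lysine 9, is rich in remnants of transposable elements such as INE-1 and 1360, and almost never crosses over in meiosis. Its genes are nevertheless active, and the RNA-binding protein POF binds them. CG11617 belongs to the TALE class of homeodomain proteins, which bind DNA through a homeodomain with an extended loop.

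The letters under some of the strongest entries are shown, for regions whose summit, the base of highest signal, lay more than 50 bp from any annotated UTR. Each sequence runs 50 bp to each side of the summit on the plus strand of the Release 6 genome (dm6, from RefSeq), read 5′ to 3′. Capitals mark matches, on either strand, to 6 words searched: TATCGATA (bound by DREF), GGTCACACT (a core promoter word), TAATTA (a common homeodomain site), TAACA (the shortest of the 6), ACATGT (an Iroquois-type word) and TGACAG (a Meis and TGIF site). These 7 windows belong to regions among the 12 strongest of chromosome 4.
gw, chr4:660126-660226: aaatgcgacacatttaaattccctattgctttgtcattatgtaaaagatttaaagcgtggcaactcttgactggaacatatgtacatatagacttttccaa
PlexA, chr4:1027227-1027327: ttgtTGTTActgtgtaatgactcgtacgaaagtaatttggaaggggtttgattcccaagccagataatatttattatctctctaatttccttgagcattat
Sox102F, chr4:807586-807686: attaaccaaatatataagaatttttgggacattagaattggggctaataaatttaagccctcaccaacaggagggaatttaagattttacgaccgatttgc
CG46466 and Slip1, chr4:663195-663295: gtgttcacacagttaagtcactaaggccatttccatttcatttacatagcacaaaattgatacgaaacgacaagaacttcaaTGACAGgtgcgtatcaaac
ATPsynbeta, chr4:1031952-1032052: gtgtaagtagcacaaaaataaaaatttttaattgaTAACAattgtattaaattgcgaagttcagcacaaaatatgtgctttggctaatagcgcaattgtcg
eIF4G1 intron, chr4:922724-922824: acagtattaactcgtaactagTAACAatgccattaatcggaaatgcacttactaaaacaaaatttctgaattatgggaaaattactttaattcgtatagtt
upstream of zfh2, chr4:497842-497942: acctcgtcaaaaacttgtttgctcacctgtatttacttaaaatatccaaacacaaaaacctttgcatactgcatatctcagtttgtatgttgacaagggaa

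Of these 7 windows, 3 held TAACA, at ATPsynbeta, in eIF4G1 and at PlexA, where it reads as its reverse complement. A further 4 windows, chosen for a word they hold or for the gene beside them, lie at the muscle gene bt, upstream of ey, at pho and at the end of the covered stretch.
bt, chr4:724498-724598: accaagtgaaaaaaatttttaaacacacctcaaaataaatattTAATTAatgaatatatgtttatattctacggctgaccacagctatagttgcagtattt
upstream of ey, chr4:696823-696923: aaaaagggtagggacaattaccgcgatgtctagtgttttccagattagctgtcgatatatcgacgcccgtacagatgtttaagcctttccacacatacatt
pho, chr4:1181705-1181805: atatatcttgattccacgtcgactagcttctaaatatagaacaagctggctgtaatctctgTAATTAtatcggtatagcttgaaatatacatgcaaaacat
last entry, beyond Cadps, chr4:1272414-1272514: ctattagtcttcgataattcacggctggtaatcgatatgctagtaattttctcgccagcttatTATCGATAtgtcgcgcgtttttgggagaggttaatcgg

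The window at bt and the one at pho each held TAATTA. The last window held TATCGATA, a palindrome, and belongs to the entry nearest the right end of the chromosome, which touches copies of the telomeric transposons HeT-A and TART-A. Across all 11 windows, GC content ran from 25.7% to 42.6% with a median of 33.7%.

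Candidate peaks on chromosome 4 had a lower median signal than those of every other arm. The authors' pooled signal had a median of 51.1 over the 260 entries, against 67.0 over the 29740 entries elsewhere, where the medians of single arms ran from 65.5 on 2L to 69.2 on X. Of the chromosome 4 entries, 97 (37.3%, 95% Wilson interval 31.7 to 43.3%) lay above the median of the whole list, against 50.1% of the others. These intervals cover counting error only, since neighbouring entries are not independent. The same share was 36.7% in the list of replicate 2 and 38.5% in that of replicate 3 (37.6% ± 1.23, SD, n = 2), so both replicates placed chromosome 4 lower. On dm3 it was 46.1% (39.0 to 53.4%), an interval that holds the 50.02% of the other arms.

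The shortfall was largest at the top of the list. The highest chromosome 4 signal was 568, at gw, which ranked 815 in the whole list, and 814 entries of other arms (2.74%) exceeded it. Among the 5000 strongest entries were 15 (5.77%) of the chromosome 4 entries and 16.8% of the others. Among the 5000 weakest were 67 (25.8%) and 16.6%. Density differed less: chromosome 4 carried 193 entries per Mb, against 224 elsewhere and 218 to 236 on single arms.

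**Figure D1:**
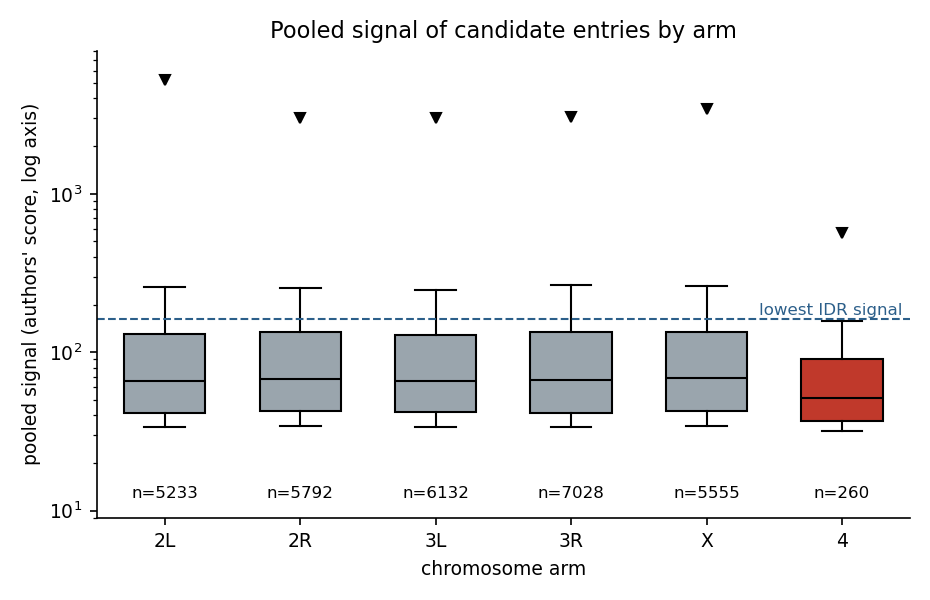
Pooled signal of the candidate entries (vertical log axis, the authors' score) by chromosome arm. Boxes span the quartiles with a line at the median, whiskers run from the 10th to the 90th percentile, triangles mark the highest entry and the dashed line the lowest signal in the IDR set. The chromosome 4 box has a median of 51.1 and its highest entry, 568, lies far below the maxima of the other arms. A maximum also depends on the number of entries, 260 on chromosome 4 and 5233 to 7028 on the others.

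The authors' optimal IDR set held 21 entries on chromosome 4, or 0.364% of its 5777. On dm6 that set equals the 5777 pooled entries of highest signal, the lowest being 163, so belonging to it restates the signal and is no separate evidence. By an overlap of at least 1 bp, 36 of the 260 entries (13.8%, 10.2 to 18.6%) met the set, against 28.6% elsewhere and a background of 28.5% over all entries. On the authors' dm3 lists the share was 29.4% (23.3 to 36.5%) against 35.5%, an interval that holds the value elsewhere. Of the 36, 21 are the IDR entries themselves and the rest are weaker entries that overlap them. The 36 formed 20 regions, or 11.0% of the 181, against 23.6% of the regions on other arms. Within the set the chromosome 4 entries were low as well: their median signal was 189, against 263 for those of other arms, and 6 of the 21 exceeded the set's own median.

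The 3 strongest regions lay at gw, RpS3A and ATPsynbeta. The region of highest signal lay 193 bp upstream of a start site of gw, which encodes GW182, a protein needed for silencing by microRNAs. Its pooled signal was 568, with 199 in replicate 2 and 375 in replicate 3. The next lay 6 bp from the start site of RpS3A, a gene for a protein of the small ribosomal subunit (pooled 438, with 112 and 324). The third lay 138 bp downstream of a start site of ATPsynbeta, which encodes the catalytic beta subunit of mitochondrial ATP synthase (pooled 429, with 90.5 and 338). It was also within 500 bp of a start of the divergent gene CG11076. In each of these regions the replicate 3 signal was above that of replicate 2, as over the lists as a whole, which are not scaled to each other.

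A translation factor gene carried the fourth region, and here it lay inside the gene. Its summit was in an intron of eIF4G1, the scaffold of the cap-binding complex, 7941 bp from the start site (pooled 330, with 88.1 and 236). The start site of eIF4G1 had an entry of its own with a signal of 142, below the IDR set. Tdg, a gene for a thymine DNA glycosylase, and Pur-alpha, a gene for a single-stranded nucleic acid binding protein, are divergent and shared the fifth region (pooled 292, with 68.4 and 218). Both genes therefore count through the same entry in every count of genes.

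The next regions lay at PlexA, Cals, CaMKII and a divergent pair of genes. PlexA, a receptor for semaphorins in axon guidance, had a region 176 bp upstream of its start (pooled 254, with 75.7 and 175). Cals encodes calsyntenin, a cadherin-like membrane protein of synapses, and its strong region lay in its 3′ UTR rather than at its promoter (pooled 259, with 39.1 and 218). That region had the highest ratio of replicate 3 to replicate 2 among the 20 in the IDR set, 5.57-fold. CaMKII, a calcium-dependent kinase of learning, had a region 14 bp from its start site (pooled 188, with 59.2 and 131). The divergent pair CG46466 and Slip1, the latter named for binding the Slowpoke potassium channel, shared a region with a pooled signal of 185 (53.7 and 138).

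Genes for transcription factors had IDR regions both at and away from their starts. Sox102F, an HMG-box factor of the Sox family, had one 289 bp upstream of a start site (pooled 230, with 84.5 and 146). For zfh2, a zinc-finger homeodomain factor, the region lay 3918 bp upstream in intergenic sequence (pooled 251, with 71.5 and 175), and an entry nearer its start reached 49.0. A region 14 bp from a start of pan, the TCF factor of Wingless signalling, had a signal of 177 (61.3 and 115.3).

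**Figure D2:**
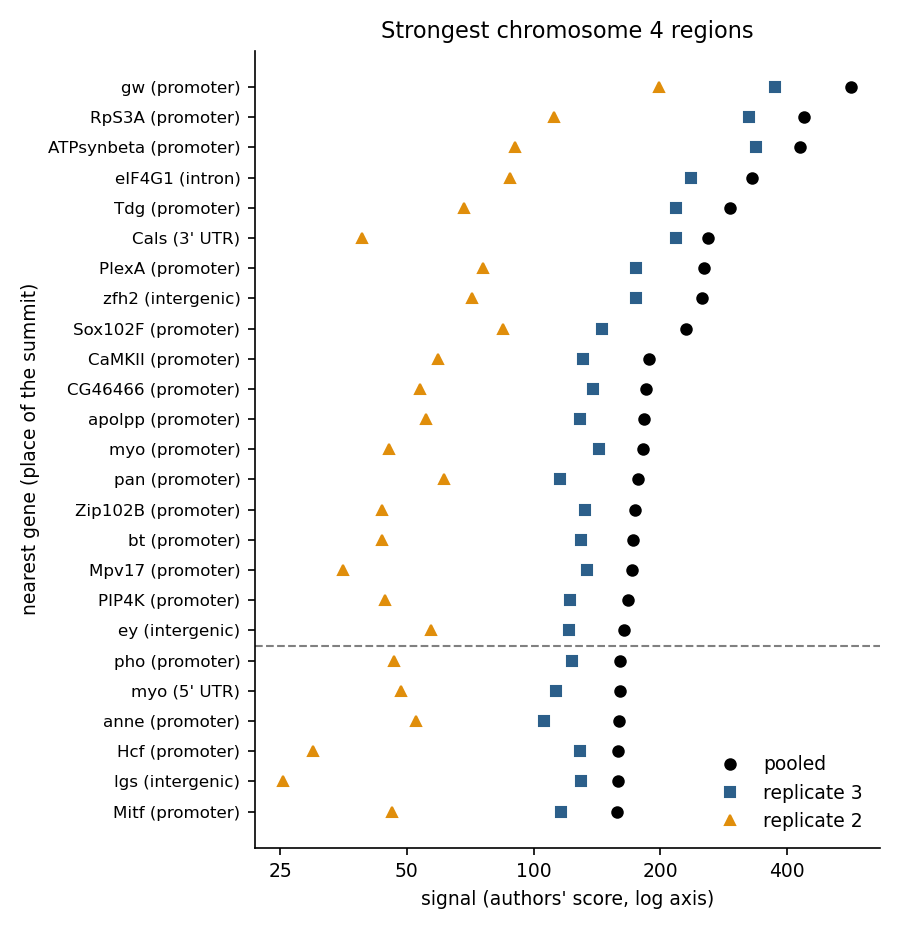
Signal (horizontal log axis) of 25 of the 26 strongest chromosome 4 regions, labelled by nearest gene and place of the summit. Circles show the pooled list, squares replicate 3 and triangles replicate 2, and regions above the dashed line overlap the IDR set. Values fall from 568 at gw to 164 at ey above the line, and replicate 3 exceeded replicate 2 at each region shown.

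Further IDR regions were those of apolpp, the precursor of the lipid carrier lipophorin (183), and myo, a TGF-beta family ligand (182). Zip102B, of a zinc transporter family, had 174, and bt, which encodes the titin-like muscle protein projectin, had 172. Mpv17, of a family of mitochondrial membrane proteins, had 171, and PIP4K, a phosphoinositide kinase gene, had 167. The lowest, with a signal of 164, was 816 bp upstream of ey. It lay between ey and the divergent gene myo, almost equally far from both start sites. Just outside the set lay regions at pho, which encodes a DNA-binding recruiter of Polycomb complexes (161), in the 5′ UTR of myo (160) and at anne (159). These values are within a few signal units of the last members. The threshold of 163 lies above the 90th percentile of the chromosome 4 entries, which was 157.8.

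The 2 Pax6 genes of the fly, ey and toy, lie on this chromosome and differed. The start site of ey had an entry of 100.9, present in both replicates at 15.95 and 83.6. The IDR region upstream of ey lies almost as near to the start of myo, so it cannot be assigned to ey alone. The start site of toy had an entry of 30.2, near the floor of the list, found in replicate 2 (19.6) and without a counterpart in replicate 3. For ci, the transcription factor of Hedgehog signalling, the entry reached 108 (45.9 and 81.6). For sv, the Pax2 gene, no summit lay within 500 bp of a start site or in the gene body. Ephrin, a ligand of Eph receptors, shared an entry of 148 with ND-49, a gene for a subunit of respiratory complex I, and its replicate signals were 7.41-fold apart (18.2 and 135).

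Promoters held 126 of the 260 summits (48.5%, 42.5 to 54.5%), against 42.5% on other arms. The interval just holds that value, at its lower end. A promoter here is the sequence within 500 bp of the start site (TSS) of a protein-coding gene, which makes up 8.55% of chromosome 4 and 11.5% of the others. Introns held 50 summits (19.2%, 14.9 to 24.5%) against 38.1% elsewhere, although they make up 42.2% of chromosome 4 sequence and 39.3% of the rest. Coding exons held 19 (7.31%, 4.73 to 11.1%) against 3.54%, and intergenic sequence 47 (18.1%, 13.9 to 23.2%) against 11.0%. A further 13 lay in 3′ UTRs and 5 in 5′ UTRs. Within the IDR set, promoters held 28 of the 36 entries (77.8%, 61.9 to 88.3%) against 66.2% elsewhere.

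The lower signal was present both at promoters and away from them. Promoter entries of chromosome 4 had a median signal of 73.8 against 100.1 on other arms, and 28 of 126 (22.2%, 15.8 to 30.2%) met the IDR set against 44.6%. Entries outside promoters had a median of 39.5 against 52.7, and 8 of 134 (5.97%, 3.06 to 11.3%) met the set against 16.8%. They included the regions at eIF4G1, Cals, zfh2 and ey described above. Promoter summits, which lie within 500 bp by definition, had a median position of 8.5 bp upstream. Their quartiles were at 135 bp upstream and 123.5 bp downstream. On other arms the median was 28 bp upstream, with quartiles at 157 bp upstream and 87 bp downstream. Summits at divergent promoters were a smaller share: 14 promoter summits (11.1%, 6.73 to 17.8%) lay within 500 bp of start sites on both strands, against 23.5% elsewhere. Some of the 14 are overlapping entries of the same region. The share of all promoters that are divergent was not counted, so a link to gene spacing was not tested.

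**Figure D3:**
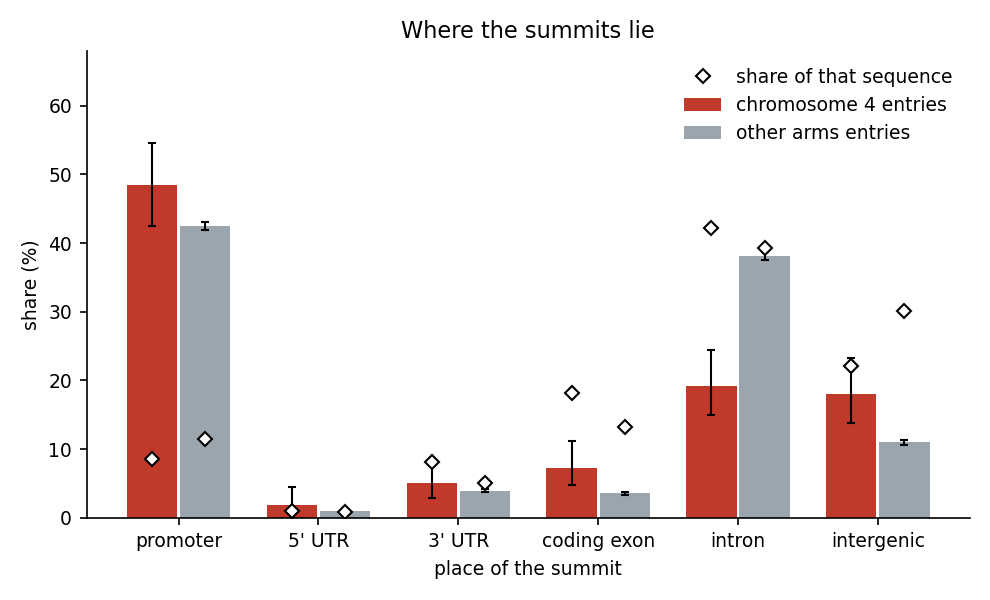
Share of summits in each class of sequence (vertical axis, percent) for chromosome 4 and the other arms, with 95% Wilson intervals as bars. Diamonds give the share of all sequence in that class. Promoters hold 48.5% of chromosome 4 summits in 8.55% of its sequence, and introns hold 19.2% in 42.2%.

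Most genes of the chromosome had a candidate peak at a start site. Chromosome 4 has 80 protein-coding genes, 59.3 per Mb against 104.6 elsewhere, and 67 of them (83.8%, 74.2 to 90.3%) had a pooled summit within 500 bp of a start site. On other arms the share was 61.5%, with a background of 61.6% over all genes. For IDR summits the count was 18 genes (22.5%, 14.7 to 32.8%) against 30.0%, with a background of 30%. That interval includes the value of the other arms, so the difference over all genes together was not detectable at this number of genes. Among genes with an entry, the median promoter signal was 119 on chromosome 4 and 159 elsewhere.

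Genes of chromosome 4 are longer and have more start sites. Their median length was 10.1 kb against 2.16 kb, with 1.77 start sites per gene against 1.40. Among the 42 genes with 1 start site, 34 (81.0%, 66.7 to 90.02%) had an entry there, against 54.0% elsewhere. Among the 38 with more start sites, 33 (86.8%, 72.7 to 94.2%) had one, against 82.3%, and the interval holds that value. IDR summits marked 7 of the 42 (16.7%, 8.32 to 30.6%) against 23.6%, and 11 of the 38 (28.9%, 17.0 to 44.8%) against 47.7%. The interval of the 42 holds the value elsewhere, and that of the 38 lies below it. Whether gene expression accounts for any of these shares was not tested.

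**Figure D4:**
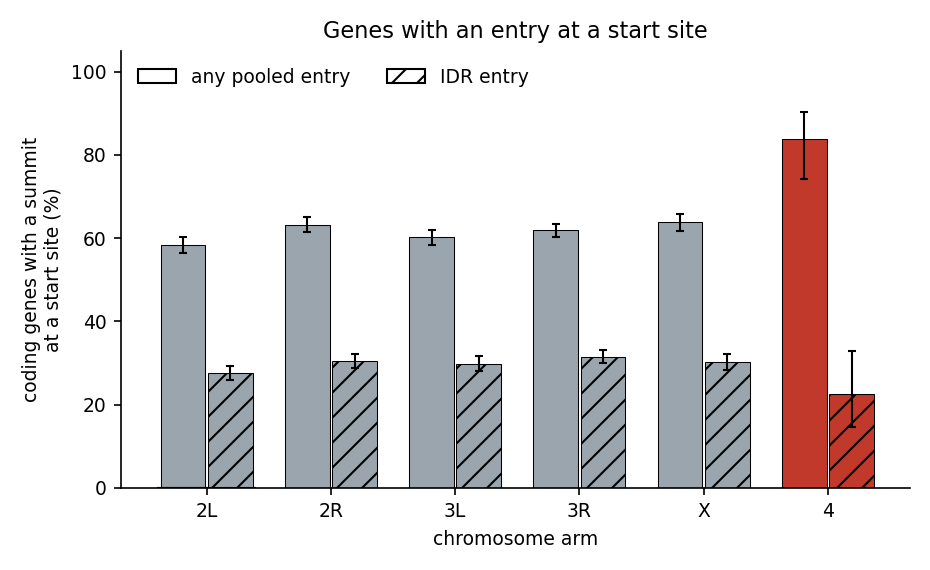
Share of protein-coding genes with a summit within 500 bp of a start site (vertical axis, percent) by chromosome arm, for any pooled entry (plain bars) and for IDR entries (hatched bars), with 95% Wilson intervals. Chromosome 4 has the highest share for any entry, 83.8%, and the lowest for IDR entries, 22.5%, with an interval that reaches the other arms.

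Genes were also grouped by role into 5 overlapping lists, which together held 64 of the 80 genes. Of 18 genes for transcription factors, 15 had an entry at a start site and 3 an IDR summit (Pur-alpha, Sox102F and pan), with a median signal of 108 among those with an entry. Of 17 signalling genes, 16 had an entry and 4 an IDR summit (PlexA, Slip1, myo and PIP4K). Of 14 neuronal and synaptic genes, 10 had an entry and 1, Zip102B, an IDR summit. Zip102B is of a zinc transporter family, which is not a synaptic role in the narrow sense. CaMKII was in none of the lists, and the IDR region of Cals lay away from its start sites. After Zip102B, the next 3 of this list by signal began with Cadps, which acts in release of dense-core vesicles, at 147 (28.8 and 118). The others were Ank, an ankyrin, at 136 (46.5 and 80.6), and the calcium pump gene PMCA at 131 (45.0 and 94.5). Of 16 genes for gene expression and housekeeping, 14 had an entry and 5 an IDR summit (gw, RpS3A, ATPsynbeta, CG11076 and pan), with the median at 145. The 2 without an entry, Ekar and JYalpha, encode a glutamate receptor and a sodium pump subunit, which are not housekeeping roles in the narrow sense. Of 6 muscle and extracellular genes, 3 had an entry and 2, apolpp and bt, an IDR summit. Members with any entry made up 50% to 94.1% of a list, against 83.8% of all chromosome 4 genes and a background of 61.6%. Those with an IDR summit made up 7.14% to 33.3%, against 22.5% and a background of 30%. The lists are small and share genes, and none of these shares can be called particular to a role.

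The 13 genes without an entry at a start site, named here after their values were seen, came from every list. They were sv, dati, the forkhead gene fd102C, the Ski-related gene fuss, the GABA transporter gene Gat, Ekar, the immunoglobulin-domain gene dpr7, the kinesin gene Kif3C, RhoGAP102A, yellow-h, CG33978, CG32006 and JYalpha. JYalpha is the leftmost of them, and its start site was 42825 bp from the nearest entry. In dati, fuss, Kif3C and CG33978 an entry lay in the gene body instead, with a highest signal of 53.5, 56.2, 43.4 and 70.5. The other 9 had no summit in the body either, although the IDR entry in the 3′ UTR of Cals overlaps the end of sv.

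Replicate support was lower on chromosome 4. Of the 260 entries, 185 (71.2%, 65.4 to 76.3%) overlapped an entry in both replicate lists, against 81.2% elsewhere and a background of 81.1%. A further 42 were found in replicate 3 alone, 25 in replicate 2 alone and 8 in neither. The pooled list was made from the same reads, so this share describes support and does not test it. All 36 IDR entries on the chromosome were found in both replicates, as were 99.7% of those elsewhere, and the shortfall lay among the others: 149 of 224 (66.5%, 60.1 to 72.4%) against 73.8%. Over entries found in both, Spearman's rho of signal was 0.67 on chromosome 4 (185 entries) and 0.84 elsewhere, a description across entries of the same 2 libraries, and the range of signal was narrower on chromosome 4.

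Signal was higher in replicate 3 by a median of 2.10-fold over chromosome 4 entries and 2.09-fold elsewhere. In the IDR regions the medians were 2.72-fold for the 20 on chromosome 4 and 2.22-fold for the others, and 15 of the 20 exceeded 2.22-fold. The log2 ratio had an SD of 0.42 over the 20 regions, and single arms had medians from 2.18-fold to 2.26-fold. With the 5777 strongest entries of replicate 3 in place of the IDR set, 49 chromosome 4 entries (18.8%) met them, against 28.8% elsewhere. With those of replicate 2, 27 (10.4%) did, against 27.7%, so chromosome 4 was lower with either replicate. For genes the 2 replicates fell on different sides of the other arms, with 26 genes (32.5% against 30.3%) in replicate 3 and 15 (18.8% against 28.1%) in replicate 2.

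**Figure D5:**
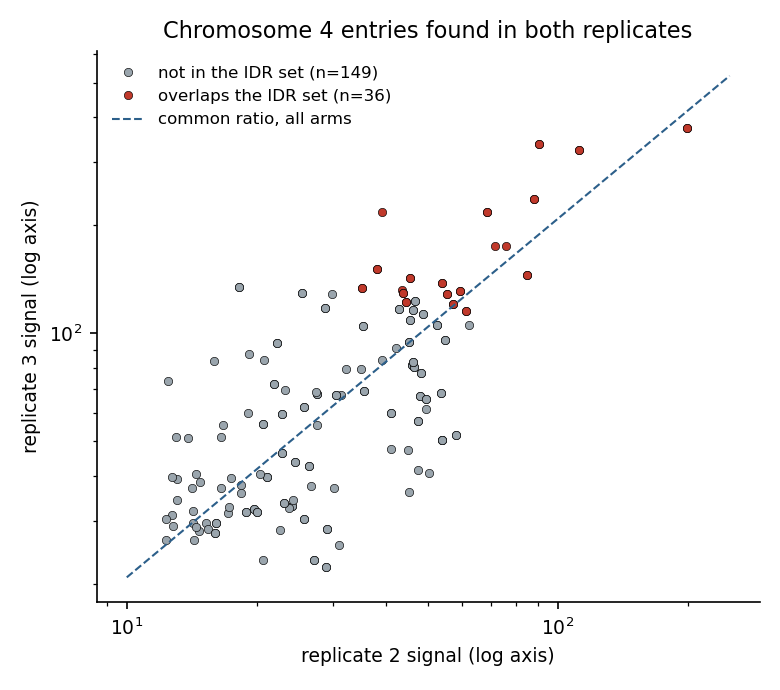
Signal in replicate 3 (vertical log axis) against replicate 2 (horizontal log axis) for the 185 chromosome 4 entries found in both. Red points overlap the IDR set and the dashed line is the median ratio over all arms. The 36 IDR entries lie at the upper right, most of them above the line.

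Entries with the summit in a transposable element had a lower median signal than the other entries of chromosome 4. Annotated elements made up 24.8% of the chromosome and 5.74% of the other arms, and 53 entries (20.4%) touched one, against 1.30% elsewhere. INE-1, a short element that is abundant here, was touched by 30 entries, and 1360, a DNA transposon, by 14. The summit itself lay in an element in 27 entries (10.4%, 7.24 to 14.7%), which had a median signal of 34.0, and 33.3% of them were found in both replicates. They included an overlapping pair in the 3′ UTR of Hcf with signals of 131 and 107, found in both replicates. Its 2 entries were 64.9% and 68.1% unique. A further 26 entries touched an element with the summit outside, with a median of 41.7 and a both-replicate share of 50%. None of the 53 overlapped the IDR set, while 36 of the 207 that touched no element did (17.4%, 12.8 to 23.1%). These groups also differed in position: promoters held 0 of the 27 summits, 5 of the 26 and 121 of the 207. All chromosome 4 entries outside promoters had a median signal of 39.5, and 5.97% of them met the set. Elsewhere, 25 entries with the summit in an element lay at promoters. A difference by element among entries of like position was not tested. On other arms, 14 entries with the summit in an element (13.9% of such entries) and 48 of 285 that touched one otherwise (16.8%) met the set, and their median signals were 53.1 and 56.9.

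Without the entries that touch an element, the differences in signal and replicate support were smaller and the difference in promoter share was larger. The median signal of the 207 was 56.6 against 67.2, the share above the list's median 42.5% (35.97 to 49.3%) against 50.3%, and the share in both replicates 78.7% against 81.3%. The promoter share was 58.5% (51.6 to 65.0%) against 42.6%. Leaving these entries out thus also changed the mix of positions, and the part of each in the smaller differences was not tested. Reads from repeats can be lost or misplaced, so the share of 36-base words that occur once in the whole genome assembly was also taken. It was 85.1% on chromosome 4 and 87.8% on the other arms. Of the 260 entries, 249 were over 90% unique, and 14.1% of those met the IDR set against 28.7%.

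Entries were spread along the chromosome up to its repeat-rich end. In windows of 100 kb, counts ran from 7 to 35 except in the last, shorter window, which had 0 entries, 95.4% transposon sequence and 9.32% unique words. The first entry began at chr4:43436, at the start of PlexB, a semaphorin receptor gene, and the last ended at chr4:1272731, 75.4 kb short of the end. The 43.4 kb before the first entry hold JYalpha and fall in the first window, which had 60.4% unique words. The most entries, 35 with 9 of the 36 in the IDR set, lay between 1000001 and 1100000, where PlexA, Mpv17, ATPsynbeta, CaMKII and apolpp stand. The window from 600001 to 700000, with gw, CG46466, Slip1, myo and the region upstream of ey, had 24 entries and 8 of the 36. The IDR entries lay in 10 of the 14 windows.

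Chromosome 4 is poor in G and C, and its summits differed from their surroundings in the other direction than elsewhere. GC content was 35.2% over the chromosome and 42.2% over the other arms. Summit windows had a mean of 35.3% ± 7.34 (SD over 260 windows) on chromosome 4, a difference of 1.60 percentage points from windows of the same length 350 bp to each side. On other arms the mean was 40.7% ± 10.2 (SD over 29740 windows), a difference of −1.42 points from the flanks. In entries of the IDR set the difference was 0.21 points on chromosome 4 and −4.14 points elsewhere.

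Of 9 words searched on both strands of the summit windows, CGATA and TAACA, the shortest, had the most matches. TAACA was in 77 of 260 windows (29.6%, 24.4 to 35.4%) and in 28.3% of flanking windows, against 20.3% and 18.3% on other arms. TAATTA was in 18 (6.92%) and 7.50% of flanks, against 6.75% and 6.39%. TATCGATA was in 5 windows (1.92%, 0.824 to 4.42%), among them that of PIP4K in the IDR set, and in 1.35% of flanks, against 1.49% and 0.493%. GGTCACACT was in 1 window, against 0.871% elsewhere. CGATA, which is contained in TATCGATA, was in 47 (18.1%), against 15.9%, and ACANNTGT, a double Iroquois-type word, in 22 (8.46%) and 8.08% of flanks, against 4.84% of summits elsewhere. ACATGT was in 10 windows (3.85%) and 5.38% of flanks, against 2.42% of summits elsewhere. TGACAG was in 9 (3.46%) and 2.31% of flanks, against 3.46%. In the 36 windows of the IDR set, TAATTA was in 5 (13.9%, 6.08 to 28.7%) and 5.56% of flanks. That interval holds the 8.10% of IDR windows on other arms. TGACAG was in 2 of the 36 (5.56%, 1.54 to 18.1%) and 1.39% of flanks, against 3.13% of IDR windows on other arms. In the same 36, TAACA was in 30.6% of summits and 30.6% of flanks, ACANNTGT in 11.1% and 9.72%. CGATA was in 19.4% and 12.5%, and ACATGT in 0 and 4.17%. GAGAGAG, the word of GAGA factor, was in 4 windows (1.54%), against 2.43%, and in 0 of the 126 promoter windows, which allows a share of up to 2.96% by the Wilson interval, against 2.81%. A match describes the letters of a window and is no measured site of binding.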

How the data were processed

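Per the deposited notes, the files are narrowPeak lists on 2 builds, dm6 and dm3. Each build has 1 list of 30000 candidates per replicate, 1 for the pooled replicates and 1 optimal IDR set. The signal of an entry is the authors' peak score, used here to describe and rank entries within 1 list, since lists are not scaled to each other. The deposited −log10 q values share a capped highest value and were not used for ranking. No source used here gives the aligner, the peak caller or read counts, so depth is unknown and no interval rests on it.

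Summits were classed by the Ensembl annotation of BDGP 6.54 as promoter (500 bp or less from a TSS of a coding gene), then UTR, coding exon, intron or intergenic, the first that applied. Overlaps needed 1 bp. A region was named after the gene with the nearest TSS. In counts of genes, every coding gene with a TSS within 500 bp of a summit was counted. A replicate signal is that of the overlapping entry of highest signal. Uniqueness is the share of 36-base words that occur once in the whole genome assembly, unplaced sequences included. Transposable elements are those of the same annotation. Shares carry 95% Wilson intervals. Python 3.11.15, numpy 2.4.6 and scipy 1.17.1 were used, and overlap, class, motif and uniqueness steps were tested on simulated data. Coordinates are dm6, counted from 1, and none was converted.

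The 2 replicates of 1 group allow no test between samples. The rule for named genes took the nearest genes of the 12 strongest regions, up to 4 members of each list by promoter signal, 10 genes whatever their values (ey, toy, ci, pan, sv, pho, RpS3A, ATPsynbeta, bt and Ephrin) and the 3 regions on each side of the IDR threshold. Among these regions, 1 is not reported here. Other genes were named after their values were seen. The members, lists and alternatives were chosen with earlier results of these data known. Of 100 symbols written in the lists, 64 were placed on chromosome 4 by the annotation and 36 were dropped. Alternatives varied window, overlap rule, peak set and build, joined overlapping entries, and used each replicate alone. Another 2, chosen after seeing the data, left out entries that touch a transposable element or are less than 90% unique.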

Additional observations from a re-analysis of the deposited data

How the results depend on the processing

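Of 37 alternatives, 21 moved a result by less than its interval and 16 by more, and 31 of the 33 set beside the other arms kept their side of them. The exceptions were the share of genes with a summit at a TSS for replicate 3 alone (32.5% against 30.3%) and for any pooled entry (83.8% against 61.5%). On dm3, chromosome 4 held 180 entries (0.6%), of which 46.1% lay above the list's median against 50.02% elsewhere and 29.4% met the larger dm3 IDR set against 35.5%. Both dm3 intervals (39.0 to 53.4% and 23.3 to 36.5%) hold the value elsewhere, so neither difference was clear of counting error in that pooled list. The share above the median was 39.9% (33.3 to 46.8%) in the dm3 list of replicate 2. In that of replicate 3 it was 44.4% (37.7 to 51.4%). The cause of the change with build was not tested. The share in the IDR set was 22.2% at promoters, 5.97% elsewhere and 3.85% for the upper 50% of the set by signal. The share above the list's median was 55.6% at promoters and 20.1% outside them. The promoter share was 40.0% with a 250 bp window, 57.7% with 1000 bp, 77.8% in the IDR set and 58.5% without entries touching a transposable element. The share found in both replicates was 58.1% with a reciprocal overlap of 50% and 23.5% among the 10000 strongest entries of each list. With each replicate left out in turn, the share of entries on chromosome 4 ran from 0.823% to 0.853%, above the median from 36.7% to 38.5%, at promoters from 44.5% to 48.2%, in the IDR set from 10.4% to 18.8%, and of genes from 18.8% to 32.5%. No paired analysis was possible because there is 1 group. Depth is unknown, and with 20 regions and 80 genes the intervals stay wide.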

Other observations

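On dm3, the authors' IDR set held 7374 entries in all and 32 on chromosome 4. The highest chromosome 4 signal was 561 on dm3 and 568 on dm6, and the lists of the 2 builds are not scaled to each other.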
